A study of Mus musculus with 34 samples.

Results

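Receptors that guide where a mouse T cell goes and what it holds on to, 8 genes in all, were followed by RNA sequencing across all groups of a stimulation experiment. The 8 genes were Ccr7, Cxcr3, Cxcr4, Ccr2, S1pr1, Itga4, Itgae and Cd44, taken by name from the 48526 genes of the deposited count table, whose identifiers were matched to GENCODE M21 symbols. All 8 were found, and all 8 passed the filter on low counts that left 18292 genes for testing. T cells were isolated from the spleens of C57BL/6 mice aged 6 to 12 weeks by negative selection, and were stimulated in culture with antibodies to CD3 and CD28 together with recombinant IL-2. RNA depleted of ribosomal RNA was sequenced in 34 libraries that form 13 groups. At 24 h (day 1) and again at 72 h (day 3) there were 3 libraries each of CD28 AYAA, CD28 Y170F, DKI and Ars2 KO, 2 of CD28 KO and 2 of WT. A further 2 libraries came from unstimulated WT cells (day 0), and no mutant was sampled unstimulated. Ars2 KO is a knockout of ARS2, which is encoded by Srrt and works with the nuclear cap-binding complex. AYAA replaces the prolines of a motif in the cytoplasmic tail of the costimulatory receptor CD28, and Y170F replaces a tyrosine there. DKI is given as a CD28 line. The labels do not say which changes it carries, which promoter or Cre drives the Ars2 knockout, or whether libraries of different days came from the same animals. The labels call the libraries of a group biological replicates.

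Circulating T cells find tissues through chemokine receptors, which sense direction, and integrins, which hold the cell to vessel walls and matrix. Naive cells enter lymph nodes through CCR7 and leave through S1PR1, which senses sphingosine 1-phosphate in lymph and blood. After activation T cells hold back from egress for a time, and effector cells gain receptors for inflamed tissue such as CXCR3 and CCR2. KLF2, a zinc finger factor, is known to drive S1pr1 in T cells.

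Depth ranged from 8.3 to 47.8 M expected counts per library (M, 1000000 counts), and the lowest count of any member in any library was 74, for Ccr2. All 6 DKI libraries and WT number 4 of both days lay under 12 M, so DKI shares its depth with WT number 4 and the other mutants with WT number 1. Mutants of the same day were all compared with the same 2 WT libraries. In Ars2 KO libraries Srrt stood at 33.5 to 64.8 CPM (counts per 1000000) at day 1 and 105 to 146 CPM at day 3, against 131 and 244 CPM in WT at day 1 and 145 and 245 CPM in WT at day 3. Cd28 stood at 476 and 482 CPM in the libraries labelled CD28 KO at day 1, against 387 and 411 CPM in WT (log2 ratio 0.26, adjusted p = 0.24 by edgeR's quasi-likelihood test). At day 3 it stood at 212 and 214 CPM in those libraries, at 270 to 304 CPM in DKI, 283 to 323 CPM in CD28 AYAA and 231 to 451 CPM in Ars2 KO, against 474 and 587 CPM in WT, and passed as lower in all 4. The day 1 count thus does not bear out the label, the day 3 count was lower but not near 0, and the wording "labelled CD28 KO" is kept. Markers of T cells were high everywhere (9 genes, 1720 to 2950 CPM summed), but the unstimulated libraries also held B cell markers (13 genes, 1050 and 1160 CPM summed), myeloid markers (16 genes, 271 and 277 CPM) and dendritic markers (10 genes, 292 and 341 CPM). In the 32 stimulated libraries, these 3 sums were 12.3 to 143, 6.22 to 43.8 and 21.8 to 95.1 CPM. Both unstimulated libraries were female by Xist and Y-linked genes, all stimulated WT and DKI libraries were male, and the other groups were mixed. In bulk RNA, fewer cells of a type and less RNA per cell cannot be told apart.

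The start regions of the genes are shown because the regulators known for several of them bind short boxes there. RefSeq promoters (GRCm38.p6, 250 bases before to 50 after the start) were matched by symbol for 5 members, Cxcr4, Itga4, Cd44, Ccr2 and Cxcr3. Ccr7, S1pr1 and Itgae had no entry. Capitals mark CACCC, the box bound by KLF factors, and GGGCGG, the box bound by Sp1 and related factors, on either strand. Each line runs 5′ to 3′ on the strand of the gene. The 3 members with a match are shown. Cxcr4 lies at chr1:128592250-128592549 on the minus strand, Itga4 at chr2:79255176-79255475 on the plus strand and Cd44 at chr2:102901616-102901915 on the minus strand.
Cxcr4: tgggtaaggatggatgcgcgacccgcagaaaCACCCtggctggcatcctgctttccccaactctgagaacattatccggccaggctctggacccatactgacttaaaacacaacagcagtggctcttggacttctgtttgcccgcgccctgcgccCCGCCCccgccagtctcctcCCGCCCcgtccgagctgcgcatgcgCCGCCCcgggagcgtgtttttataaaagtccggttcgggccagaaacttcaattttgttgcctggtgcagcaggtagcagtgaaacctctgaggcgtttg
Itga4: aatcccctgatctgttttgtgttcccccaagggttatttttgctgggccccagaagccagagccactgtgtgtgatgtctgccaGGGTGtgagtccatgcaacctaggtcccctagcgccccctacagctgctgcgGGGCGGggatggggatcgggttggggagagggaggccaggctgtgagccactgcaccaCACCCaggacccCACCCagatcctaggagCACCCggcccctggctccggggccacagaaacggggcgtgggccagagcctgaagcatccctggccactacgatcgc
Cd44: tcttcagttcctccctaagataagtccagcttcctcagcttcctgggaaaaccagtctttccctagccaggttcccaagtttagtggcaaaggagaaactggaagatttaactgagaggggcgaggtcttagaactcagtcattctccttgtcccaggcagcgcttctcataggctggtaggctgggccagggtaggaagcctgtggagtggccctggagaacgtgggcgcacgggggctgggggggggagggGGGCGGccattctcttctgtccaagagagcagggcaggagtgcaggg
The Itga4 window held 4 CACCC boxes and the Cxcr4 window 1, so 2 of the 5 member windows held one, against 57.5% of the 32851 promoters of the table. GGGCGG was found in 3 of the 5, namely 3 times in Cxcr4 and 1 time each in Itga4 and Cd44, against 35.7% of all promoters. Of the other motifs searched on both strands, the T-box sequence TCACAC was in Itga4 and Cxcr3 (14.5% of all promoters) and the NFAT core GGAAA in Cxcr4, Cd44 and Ccr2 (61.3%). The FOXO sequence GTAAACA (3.6%), the AP-1 sequence TGACTCA (5.2%) and the E-box CACGTG (7.2%) were in 0 of the 5 windows. These are matches of letters, and binding was not measured.

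Levels were compared as CPM on TMM library sizes within a gene, and per kilobase of exon between genes. In unstimulated WT the order per kilobase was S1pr1 at 160 CPM per kb, Ccr7 at 117, Itga4 at 43.5, Cxcr4 at 32.9, Cxcr3 at 27.4, Cd44 at 12.6, Ccr2 at 12.3 and Itgae at 10.5. Receptors of the naive cell thus led the list. Over the 13 groups Ccr2 varied most, with the mean of its highest group, Ars2 KO at day 3, 26.0 times that of its lowest, labelled CD28 KO at day 1. The same ratio was 9.32 for Itgae, 7.17 for Cxcr3, 5.48 for S1pr1, 4.90 for Itga4, 4.55 for Cxcr4, 4.23 for Cd44 and 3.54 for Ccr7. When the groups were ordered by their mean, 1 to 4 of the 12 neighbouring pairs of a gene had CPM ranges that did not overlap. Neighbours in such an order are close by construction, and the share over all genes was not counted. The orders are thus a description, and differences between neighbours were not tested in this way.

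**Figure D1:**
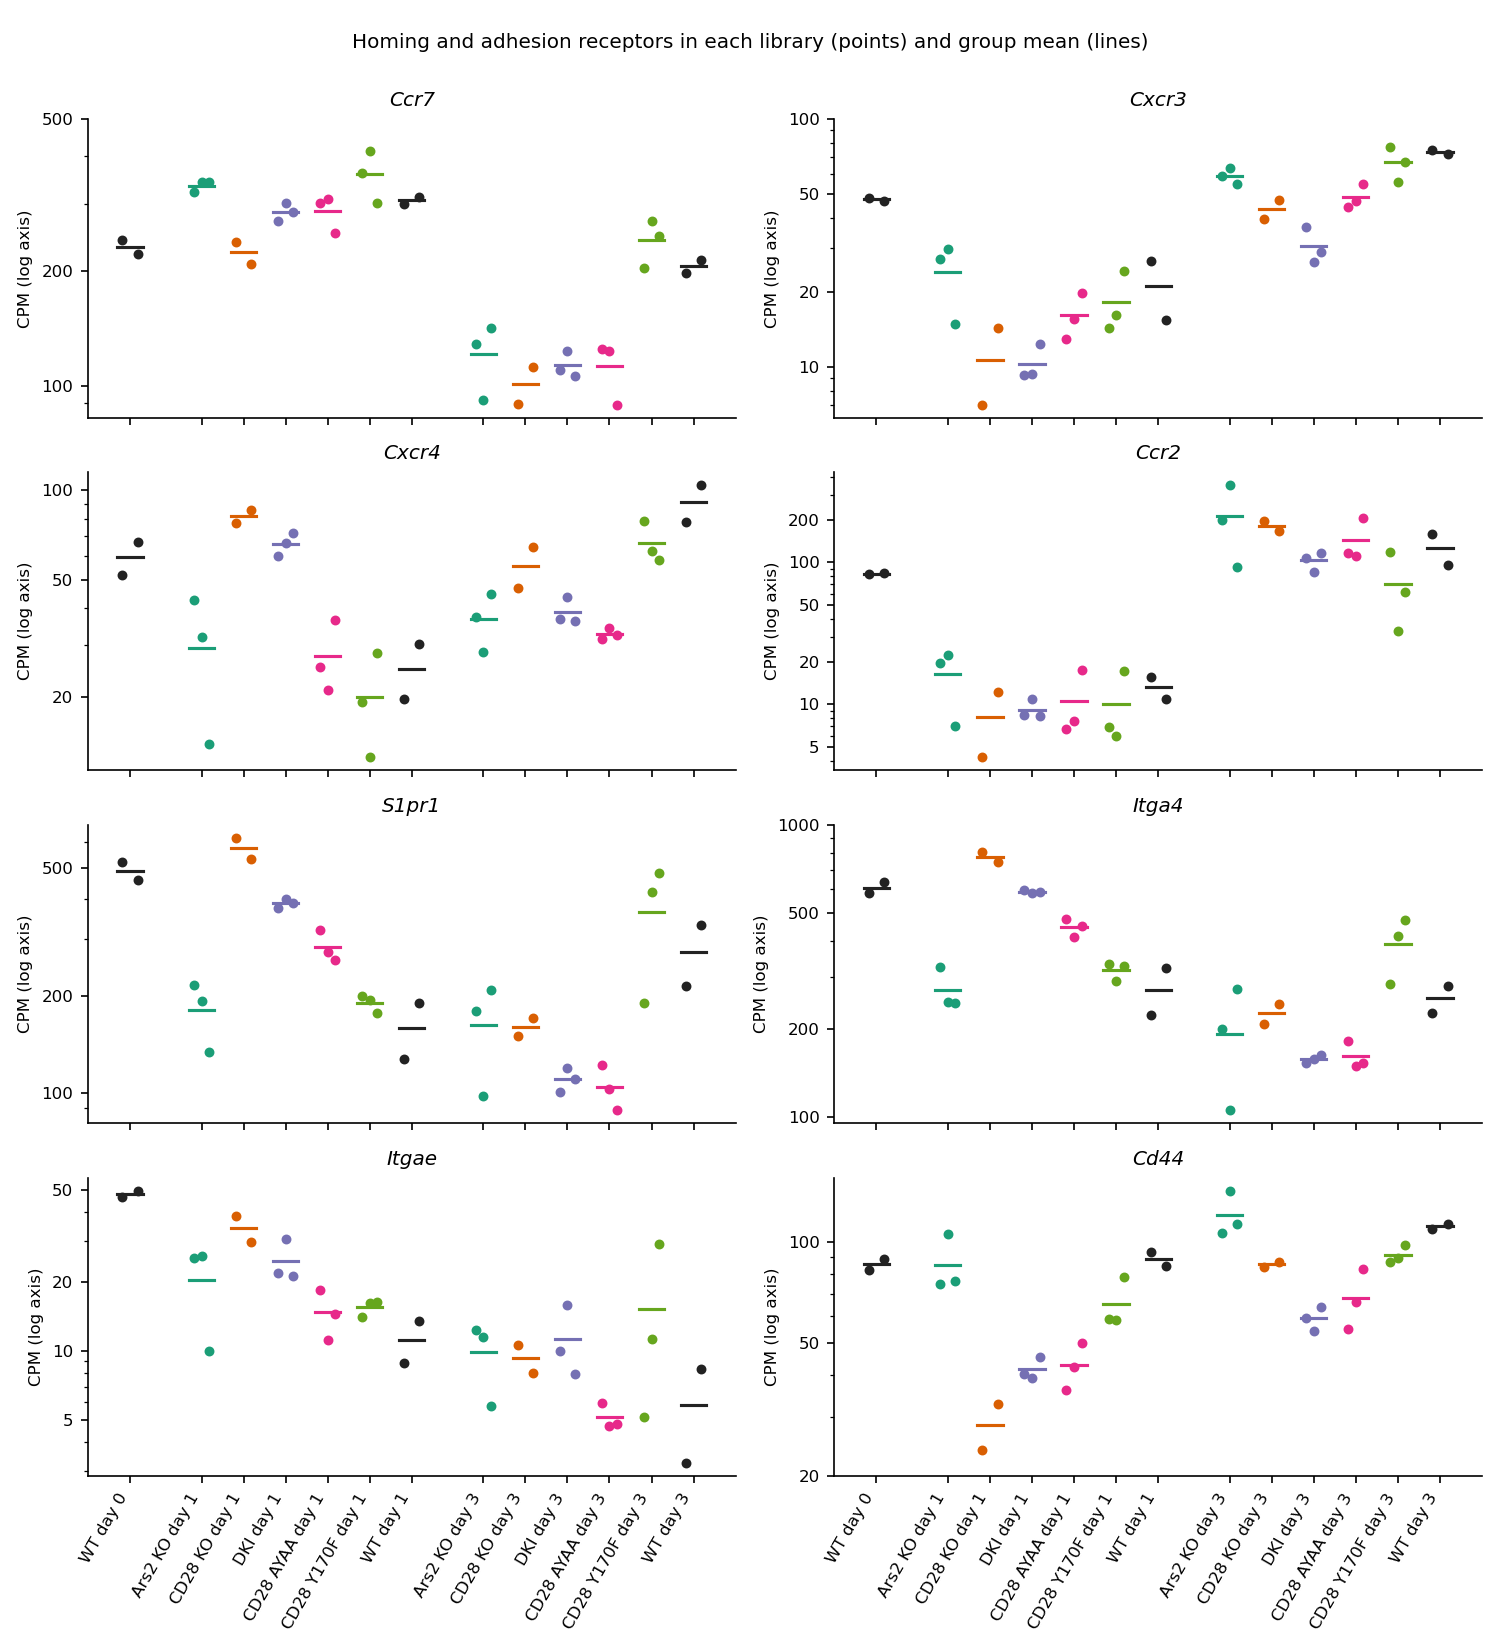
CPM of each member on a log axis in every library (points) with the group mean (lines), by group, with days from left to right and WT last within a day. S1pr1 and Itga4 were highest in the libraries labelled CD28 KO at day 1, with means of 575 and 774 CPM, and Ccr2 was under 23 CPM in every library of day 1.

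Most of these receptors were lower in WT cells after a day of stimulation than in unstimulated WT. At day 1 against day 0, 6 of the 8 members fell and 0 rose, while 51.3% of all genes tested changed and 27.2% fell (edgeR's quasi-likelihood test with Benjamini-Hochberg adjustment over all genes, as in every comparison that follows). Changes are log2 ratios of the first group named over the second, with their standard error (SE). Ccr2, a receptor for the monocyte chemoattractant CCL2, fell by 2.62 on the log2 scale (SE 0.64, adjusted p = 0.0013) and Itgae, the αE chain that pairs with Itgb7 to bind E-cadherin, fell by 2.13 (SE 0.53, adjusted p = 0.0016). S1pr1 stood at 128 and 190 CPM at day 1, against 519 and 457 CPM at day 0, a log2 ratio of -1.62 (SE 0.32, adjusted p = 1.6e-04). Both day 1 libraries lay far under both day 0 libraries, and ranges were apart in 77.3% of all genes tested in this comparison.

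Itga4, the α4 chain of VLA-4 and of the gut receptor α4β7, was at 222 and 322 CPM at day 1, against 582 and 634 CPM at day 0 (log2 ratio -1.16, SE 0.26, adjusted p = 6.0e-04). Cxcr4, the receptor for CXCL12, was at 19.8 and 30.2 CPM, against 51.7 and 67.1 CPM (log2 ratio -1.26, SE 0.36, adjusted p = 0.0044). Cxcr3, the receptor for the interferon-induced chemokines CXCL9 and CXCL10, was at 26.8 and 15.4 CPM, against 48 and 46.7 CPM (log2 ratio -1.14, SE 0.30, adjusted p = 0.0026). None of the 3 genes had ranges that overlapped between the days, which was also so for 77.3% of all genes tested.

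Ccr7, the lymph node entry receptor, did not pass at day 1 (299 and 313 CPM, against 241 and 221 CPM at day 0, log2 ratio 0.41, SE 0.17, adjusted p = 0.054). Cd44, the hyaluronan receptor widely used as a mark of activated T cells, did not pass either (log2 ratio 0.05, SE 0.19, adjusted p = 0.84). By day 3, 3 of the 8 members were below day 0, against 50.5% of genes changed and 27.0% lower: Itgae (log2 ratio -3.15), Itga4 (-1.26) and S1pr1 (-0.84). Cxcr3, Cxcr4 and Ccr2 were no longer below day 0 at day 3 (log2 ratios 0.64, 0.61 and 0.61, adjusted p = 0.072, 0.14 and 0.41). The sums of B cell, myeloid and dendritic markers fell between the same libraries, and their part in the fall of the members was not tested. Csf1r, a defining monocyte marker, was at 61.1 and 68.9 CPM at day 0 and at most 2.26 CPM in any stimulated library, and monocytes are known to express Ccr2, as some dendritic cells express Itgae. Leaving out 1 library ended 3 of these calls. Cxcr4 at day 1 was lost without WT number 1 of day 1 (-1.02, adjusted p = 0.075) and Cxcr3 without WT number 4 (-0.81, adjusted p = 0.064). S1pr1 at day 3 was lost without either day 0 library (-0.74 and -0.92, adjusted p = 0.12 and 0.052) or WT number 1 of day 3 (-0.56, adjusted p = 0.26).

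At day 1 the count of members that passed against WT was highest in the libraries labelled CD28 KO, then in DKI, then in CD28 AYAA. Ars2 KO and CD28 Y170F had no member that passed. The order itself was not tested, and it did not hold for every member. All DKI libraries were of low depth, and those labelled CD28 KO and CD28 AYAA were not. Depth and genotype thus cannot be told apart where DKI is set against either. Set against each other in the fit of all groups, DKI and the libraries labelled CD28 KO differed in 0 of 8 members (9.06% of all genes tested). In the libraries labelled CD28 KO, 7 of the 8 members passed against WT, with 43.3% of all genes tested passing. S1pr1, Cxcr4, Itga4 and Itgae were higher and Ccr7, Cxcr3 and Cd44 were lower. In DKI 5 of 8 passed (26% of all genes), with S1pr1, Cxcr4 and Itga4 higher and Cxcr3 and Cd44 lower. In CD28 AYAA only Cd44 passed (3.61% of all genes). In Ars2 KO 0 of 8 passed (0.399% of all genes), and in CD28 Y170F 0 of 8 (0.0547%). DESeq2 and limma-voom also called 0 members in both, and the unadjusted p was under 0.05 for 0 members in Ars2 KO and 1 in CD28 Y170F.

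S1pr1 stood at 616 and 533 CPM in the libraries labelled CD28 KO, at 376, 401 and 389 CPM in DKI and at 321, 274 and 258 CPM in CD28 AYAA, against 128 and 190 CPM in WT. It was at 200, 195 and 177 CPM in CD28 Y170F and at 216, 193 and 134 CPM in Ars2 KO. The first 3 groups lay above both WT libraries and did not overlap one another. Relative to WT, the log2 ratio was 1.85 (SE 0.32, adjusted p = 5.3e-05) for the libraries labelled CD28 KO, 1.29 (SE 0.30, adjusted p = 0.0029) for DKI and 0.84 (SE 0.29, adjusted p = 0.099) for CD28 AYAA, the last not passing. The day 1 level in the libraries labelled CD28 KO did not pass against unstimulated WT (log2 ratio against day 0 of 0.24). Both of these libraries nonetheless lay above both day 0 libraries (519 and 457 CPM), in a comparison where ranges were apart in 83.7% of all genes tested. Ranges apart from WT at day 1 were common over all genes tested. The share was 71% in the libraries labelled CD28 KO, 53.9% in DKI and 40.7% in CD28 AYAA. Between these groups it was 49.2% for DKI and 58.1% for CD28 AYAA against the libraries labelled CD28 KO, and 32.2% for DKI against CD28 AYAA. These shares hold for the day 1 ranges that follow too.

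Itga4 followed the same order. It was at 804 and 744 CPM in the libraries labelled CD28 KO, at 596, 585 and 586 CPM in DKI and at 475, 412 and 449 CPM in CD28 AYAA, against 222 and 322 CPM in WT. These groups did not overlap each other or WT. Their log2 ratios were 1.51 (SE 0.26, adjusted p = 5.6e-05), 1.12 (SE 0.24, adjusted p = 0.0019) and 0.71 (SE 0.24, adjusted p = 0.089) in that order of groups, the last not passing.

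Cxcr4 separated 2 of these groups from the third. It was at 77.4 and 86.1 CPM in the libraries labelled CD28 KO and at 60, 66.3 and 71.6 CPM in DKI, but at 25.4, 21.2 and 36.4 CPM in CD28 AYAA, against 19.8 and 30.2 CPM in WT. Both high groups lay above every WT library, and CD28 AYAA overlapped WT. This gave log2 ratios of 1.73 (SE 0.36, adjusted p = 3.8e-04) for the libraries labelled CD28 KO, 1.41 (SE 0.34, adjusted p = 0.0039) for DKI and 0.16 (SE 0.33, adjusted p = 0.82) for CD28 AYAA. Itgae was at 38.7 and 29.7 CPM in the libraries labelled CD28 KO, against 8.86 and 13.5 CPM in WT (log2 ratio 1.64, SE 0.53, adjusted p = 0.014), and did not pass in DKI (1.16, SE 0.50, adjusted p = 0.088).

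Cd44 ran the other way in all 3 groups. It was at 24.0 and 32.7 CPM in the libraries labelled CD28 KO, at 40.2, 39.2 and 45.4 CPM in DKI and at 36.1, 42.3 and 50.0 CPM in CD28 AYAA, against 93.1 and 84.7 CPM in WT. No library of these groups reached the lower WT value. Relative to WT the ratios were, on the log2 scale, -1.65 (SE 0.20, adjusted p = 4.4e-07), -1.10 (SE 0.17, adjusted p = 6.6e-05) and -1.06 (SE 0.17, adjusted p = 0.0012) in that order of groups. In CD28 Y170F Cd44 was at 58.8, 58.5 and 78.5 CPM, below both WT libraries, but did not pass (log2 ratio -0.45, SE 0.17, adjusted p = 1).

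Cxcr3 was at 7.02 and 14.3 CPM in the libraries labelled CD28 KO and at 9.27, 9.30 and 12.3 CPM in DKI, against 26.8 and 15.4 CPM in WT. Both groups lay under both WT libraries, the higher of the labelled CD28 KO libraries by little. The log2 ratio was -1.0 (SE 0.32, adjusted p = 0.012) for the libraries labelled CD28 KO and -1.06 (SE 0.29, adjusted p = 0.010) for DKI. In CD28 AYAA, Cxcr3 was at 12.9, 15.6 and 19.9 CPM, overlapping WT, and did not pass (log2 ratio -0.41, adjusted p = 0.40). Ccr7 was at 238 and 209 CPM in the libraries labelled CD28 KO, against 299 and 313 CPM in WT (log2 ratio -0.45, SE 0.18, adjusted p = 0.039).

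WT number 4 lay between WT number 1 and the mutants in several of these genes. Against WT number 4 alone, the library of its own depth, DKI kept 1 of its 5 calls, Cd44 (log2 ratio -0.98, SE 0.22, adjusted p = 0.0086). S1pr1 was then at 1.08 (SE 0.38, adjusted p = 0.12), Cxcr4 at 1.17 (SE 0.43, adjusted p = 0.14), Itga4 at 0.91 (SE 0.31, adjusted p = 0.10) and Cxcr3 at -0.54 (SE 0.36, adjusted p = 0.44), so the DKI calls other than Cd44 rest on WT number 1. Against WT number 1 alone, the libraries labelled CD28 KO kept 6 of 7 calls, all but Ccr7 (adjusted p = 0.13), and CD28 AYAA kept Cd44 (log2 ratio -1.16, SE 0.21, adjusted p = 0.0013). Against WT number 4 alone, 4 of the 7 were kept in the libraries labelled CD28 KO, and Cxcr3 was lost (log2 ratio -0.46, adjusted p = 0.40), as were Itgae (1.40, adjusted p = 0.14) and Ccr7 (-0.43, adjusted p = 0.15). Cxcr3 was also lost without number 1 of the libraries labelled CD28 KO (-0.59, adjusted p = 0.23), as were Itgae (1.44, adjusted p = 0.082) and Ccr7 (-0.55, adjusted p = 0.061), and Ccr7 was lost without number 2 too (-0.36, adjusted p = 0.21). Beside these changes, 8 of 13 B cell markers were higher and 4 of 7 markers of regulatory T cells lower in the libraries labelled CD28 KO, and 3 of 7 markers of regulatory T cells were lower in DKI and in CD28 AYAA. The 7 summed to 227 and 229 CPM in unstimulated WT and to 989 and 1100 CPM in WT at day 1. This list thus rose with stimulation in WT, and a lower value need not mean fewer such cells. The 10 dendritic markers summed to 92.9 and 95.1 CPM in the libraries labelled CD28 KO, 50.5 to 55.8 CPM in DKI and 38.2 to 52.6 CPM in CD28 AYAA, against 32.2 and 41.4 CPM in WT, with 1, 2 and 0 of the 10 passing as higher. The 7 markers of stroma and endothelium summed to 204 and 244, 212 to 229 and 191 to 225 CPM in the same order, against 123 and 158 CPM in WT, with 1, 2 and 0 passing as higher. Over all genes tested, 43.3, 26 and 3.61% passed in these 3 comparisons. Xcr1, which defines a class of dendritic cells, was at most 0.920 CPM in these groups. The part of these cell types in the changes of the members was not tested.

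**Figure D2:**
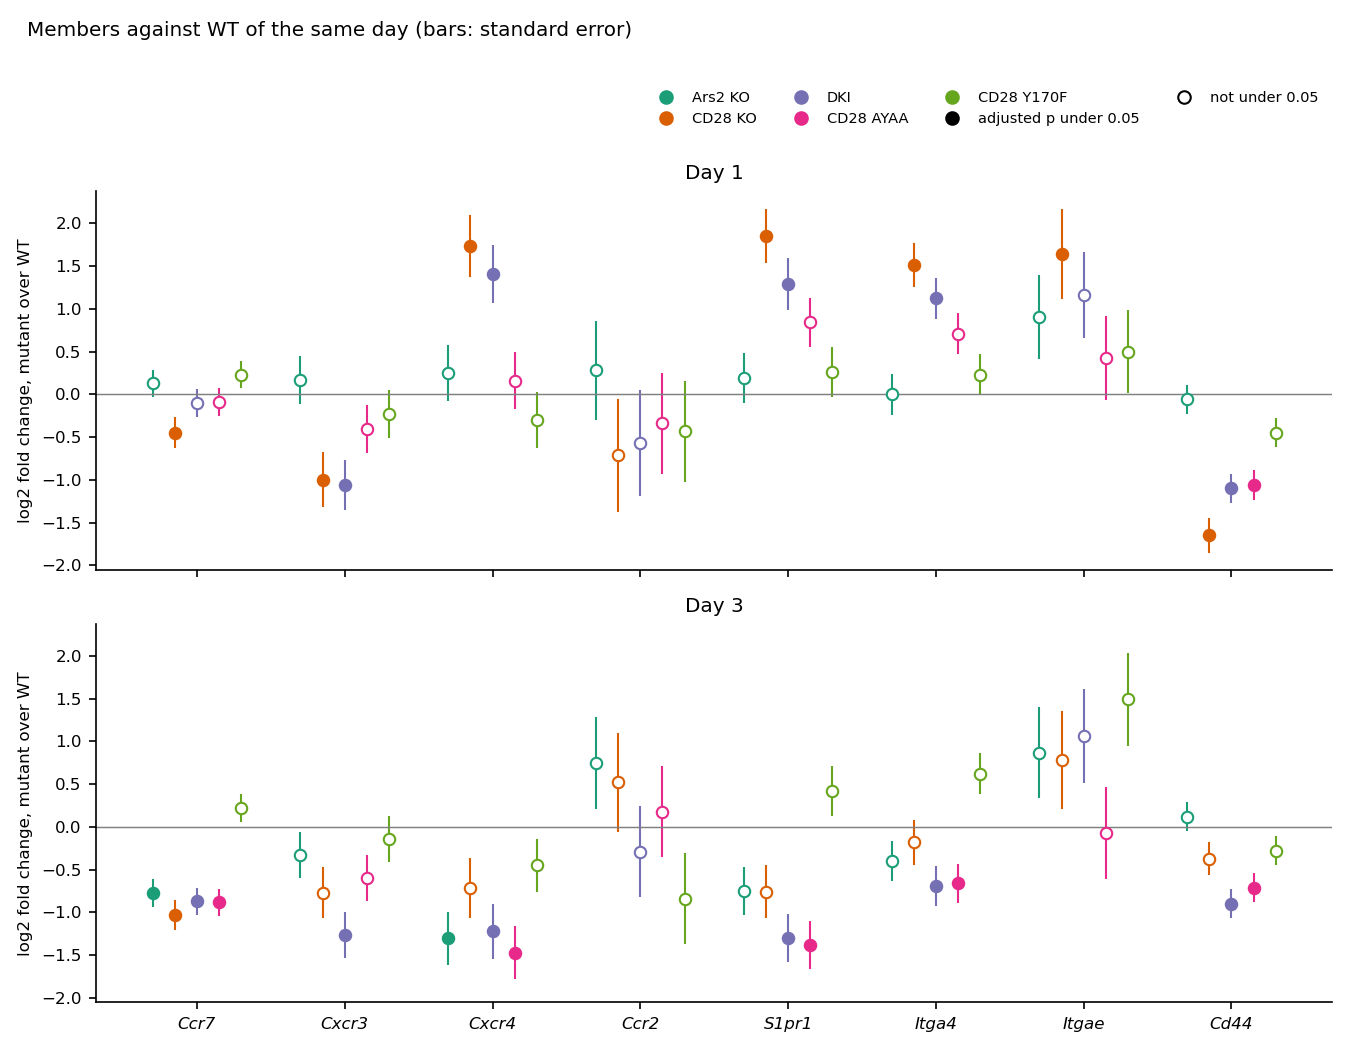
The log2 ratio of each member in each mutant over WT of the same day, at day 1 (upper panel) and day 3 (lower panel), with bars for the standard error and filled points for an adjusted p under 0.05. S1pr1 and Itga4 in the libraries labelled CD28 KO, DKI and CD28 AYAA lie above 0 at day 1 and below 0 at day 3. Neither passed in CD28 AYAA at day 1 (0.84 and 0.71) or in the libraries labelled CD28 KO at day 3 (-0.76 and -0.18).

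At day 3 no member passed as higher than in WT, and the members that passed were all lower. Itgae, higher at day 1 in the libraries labelled CD28 KO, still had a log2 ratio above 0 there (0.78, SE 0.57, adjusted p = 0.37) and in DKI (1.06, SE 0.55, adjusted p = 0.17) without passing, and its interaction of genotype and day did not pass in either (-0.86 and -0.10). In DKI 6 of 8 members fell, while 23.4% of all genes tested passed and 13.1% fell. In CD28 AYAA 5 of 8 fell (21.7% passed, 11.3% fell). In Ars2 KO 2 of 8 fell (12.9% passed, 6.27% fell), and in the libraries labelled CD28 KO 1 of 8 (20% passed, 11.5% fell). In CD28 Y170F 0 of 8 passed (0.0273% of all genes), as with DESeq2 and limma-voom, with 2 members at an unadjusted p under 0.05. Without number 1 of CD28 Y170F, 2 members passed.

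Ccr7 fell in all 4 mutants other than CD28 Y170F. It stood at 129, 91.7 and 142 CPM in Ars2 KO, at 89.5 and 112 CPM in the libraries labelled CD28 KO, at 110, 123 and 106 CPM in DKI and at 125, 123 and 89.1 CPM in CD28 AYAA, against 198 and 214 CPM in WT. The highest library of these 4 groups lay below the lower WT library. The log2 ratios were -0.77 (SE 0.16, adjusted p = 0.0023), -1.03 (SE 0.18, adjusted p = 2.1e-04), -0.87 (SE 0.16, adjusted p = 3.0e-04) and -0.88 (SE 0.16, adjusted p = 3.2e-04) in that order. CD28 Y170F held 204, 270 and 247 CPM and did not pass (log2 ratio 0.22, SE 0.16, adjusted p = 0.92). Ranges apart from WT at day 3 were common over all genes tested. The share was 31.8% in Ars2 KO, 58.6% in the libraries labelled CD28 KO, 49.5% in DKI and 50.6% in CD28 AYAA. These shares hold for the day 3 ranges that follow too.

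S1pr1 was at 101, 120 and 111 CPM in DKI and at 122, 103 and 89.0 CPM in CD28 AYAA, against 215 and 332 CPM in WT. Neither group overlapped WT. The log2 ratio was -1.30 (SE 0.28, adjusted p = 0.0015) for DKI and -1.38 (SE 0.28, adjusted p = 0.0010) for CD28 AYAA. The libraries labelled CD28 KO, at 151 and 171 CPM, and Ars2 KO, at 180, 97.8 and 209 CPM, also lay below both WT libraries without passing (log2 ratios -0.76 and -0.75, adjusted p = 0.090 and 0.079).

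Cxcr4 was at 36.9, 43.6 and 36.2 CPM in DKI, at 31.4, 34.3 and 32.6 CPM in CD28 AYAA and at 37.4, 28.4 and 44.7 CPM in Ars2 KO, against 78.5 and 104 CPM in WT. Every one of these libraries lay well under the lower WT library. On the log2 scale these were -1.22 (SE 0.32, adjusted p = 0.0059), -1.47 (SE 0.31, adjusted p = 0.0015) and -1.30 (SE 0.31, adjusted p = 0.0067) in that order.

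Itga4 was at 153, 157 and 163 CPM in DKI and at 181, 149 and 152 CPM in CD28 AYAA, against 227 and 281 CPM in WT (log2 ratio -0.69, SE 0.23, adjusted p = 0.034, and -0.66, SE 0.23, adjusted p = 0.043). Cd44 was at 59.3, 54.2 and 64.0 CPM in DKI and at 54.9, 66.1 and 82.6 CPM in CD28 AYAA, against 109 and 113 CPM in WT (log2 ratio -0.90, SE 0.17, adjusted p = 4.3e-04, and -0.71, SE 0.17, adjusted p = 0.0041). Cxcr3 passed in DKI alone, at 36.8, 26.5 and 29.0 CPM, against 75.0 and 72.5 CPM in WT (log2 ratio -1.26, SE 0.27, adjusted p = 0.0013). In none of these did a mutant library reach the lower WT library. Whether Cxcr3 differed between DKI and CD28 AYAA at day 3 did not pass (log2 ratio -0.66, SE 0.25, adjusted p = 0.63). In the libraries labelled CD28 KO, Itga4 was at 208 and 243 CPM, overlapping WT, and did not pass (log2 ratio -0.18, adjusted p = 0.69).

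Against WT number 4 alone all 6 DKI calls of day 3 were kept, with S1pr1 at -1.59 (SE 0.33, adjusted p = 0.0016). Without WT number 4, 3 were kept, and S1pr1 (log2 ratio -0.96, adjusted p = 0.068), Cxcr4 (-1.02, adjusted p = 0.091) and Itga4 (-0.53, adjusted p = 0.27) were lost. Itga4 in DKI also failed without any single DKI library (-0.66 to -0.71, adjusted p = 0.064 to 0.085). In CD28 AYAA, against WT number 1 alone, the library of like depth, Ccr7 (-0.82, SE 0.20, adjusted p = 0.012) and Cxcr4 (-1.26, SE 0.38, adjusted p = 0.042) were kept of 5, and S1pr1 (-1.04, SE 0.33, adjusted p = 0.059), Cd44 (-0.68, SE 0.21, adjusted p = 0.054) and Itga4 (-0.50, SE 0.29, adjusted p = 0.35) were not. Itga4 in CD28 AYAA was also lost without WT number 1 (-0.80, adjusted p = 0.052) and without number 2 or number 3 of CD28 AYAA (-0.61 and -0.62, adjusted p = 0.12 and 0.11). In Ars2 KO against WT number 1 alone, Ccr7 was kept (-0.71, SE 0.20, adjusted p = 0.041) and Cxcr4 was not (-1.09, SE 0.38, adjusted p = 0.11), and Ccr7 in the libraries labelled CD28 KO was kept (-0.98, SE 0.21, adjusted p = 0.0039).

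Markers of T cell lineages also differed at day 3. Cd4 was at 40.0 and 46.2 CPM in the libraries labelled CD28 KO, at 64.8 to 72.3 CPM in DKI and at 47.6 to 97 CPM in CD28 AYAA, against 111 and 140 CPM in WT. Cd8a was at 559 and 492 CPM, at 628 to 684 CPM and at 583 to 676 CPM in the same order, against 487 and 449 CPM in WT. Cd4 passed in the libraries labelled CD28 KO and in DKI, and Cd8a in DKI and CD28 AYAA. Of 5 γδ T cell markers, 5 were higher in the libraries labelled CD28 KO and in CD28 AYAA and 4 in DKI and Ars2 KO, and of 9 general T cell markers 7, 6, 8 and 5 were lower in the same order. The 7 markers of NK and innate cells moved in the same 4 mutants. They summed to 373 and 474 CPM in the libraries labelled CD28 KO, 299 to 338 CPM in DKI, 277 to 416 CPM in CD28 AYAA, 154 to 369 CPM in Ars2 KO and 85.1 to 135 CPM in CD28 Y170F, against 111 and 163 CPM in WT. Of the 7, 4 passed as higher in the libraries labelled CD28 KO, 2 each in DKI, CD28 AYAA and Ars2 KO, and 0 in CD28 Y170F. Over all genes tested, 20, 23.4, 21.7, 12.9 and 0.0273% passed in these groups in that order. None was at 0 in all libraries of a group, and Ncr1, a defining NK marker, was at most 2.13 CPM in any library of day 3. The part of all these cell types in the changes of the members was not tested.

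S1pr1, Itga4 and Cxcr4 had log2 ratios over WT above 0 at day 1 and below 0 at day 3 in the libraries labelled CD28 KO, DKI and CD28 AYAA, while Cd44 was below 0 on both days in all 3. S1pr1, Itga4 and Cxcr4 did not pass in the libraries labelled CD28 KO at day 3 (-0.76, -0.18 and -0.71) or in CD28 AYAA at day 1 (0.84, 0.71 and 0.16). The difference between the days was tested as the interaction of genotype and day, in which the day 1 effect against WT is taken from the day 3 effect. In the libraries labelled CD28 KO 4 of 8 members passed (35.3% of all genes tested), in DKI 4 of 8 (32.5%), in CD28 AYAA 4 of 8 (24.4%), in Ars2 KO 1 of 8 (3.68%) and in CD28 Y170F 0 of 8 (0%), with 0 also by DESeq2 and limma-voom and 0 members at an unadjusted p under 0.05. For S1pr1 the interaction was -2.62 (SE 0.45, adjusted p = 7.5e-05) in the libraries labelled CD28 KO, -2.59 (SE 0.41, adjusted p = 5.2e-05) in DKI and -2.22 (SE 0.41, adjusted p = 4.3e-04) in CD28 AYAA. For Itga4 it was -1.68 (SE 0.37, adjusted p = 8.0e-04), -1.80 (SE 0.34, adjusted p = 2.4e-04) and -1.37 (SE 0.34, adjusted p = 0.0042) in the same order. For Cxcr4 it was -2.44 (SE 0.50, adjusted p = 4.5e-04), -2.64 (SE 0.46, adjusted p = 1.4e-04) and -1.63 (SE 0.46, adjusted p = 0.011).

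Ccr7 passed in Ars2 KO (-0.90, SE 0.23, adjusted p = 0.027), DKI (-0.77, SE 0.23, adjusted p = 0.011) and CD28 AYAA (-0.79, SE 0.23, adjusted p = 0.013). Cd44 passed in the libraries labelled CD28 KO with the opposite sign, at 1.28 (SE 0.27, adjusted p = 6.1e-04), since its day 1 effect of -1.65 stood against -0.37 at day 3. The 3 interactions of Ccr7 ended when WT number 4 of day 3 was left out (adjusted p = 0.14 in Ars2 KO, 0.051 in DKI and 0.066 in CD28 AYAA), and Cxcr4 in CD28 AYAA ended there too (-1.42, adjusted p = 0.070). Without WT number 1 of day 1, CD28 AYAA kept S1pr1 alone, with Itga4 at -1.14 (adjusted p = 0.053), Cxcr4 at -1.35 (adjusted p = 0.097) and Ccr7 at -0.76 (adjusted p = 0.063). In Ars2 KO the Ccr7 interaction was also lost without WT number 1 or number 4 of day 1 (adjusted p = 0.077 and 0.064), without Ars2 KO number 1 or number 2 of day 1 (0.057 and 0.058) and without Ars2 KO number 2 of day 3 (-0.73, adjusted p = 0.072).

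Within each genotype, with no other genotype as reference, the day 3 to day 1 comparison showed 3 members that moved one way in all 6 genotypes. Of the 8 members, 8 passed in DKI (47.4% of all genes tested), 7 in CD28 AYAA (45.4%) and 7 in the libraries labelled CD28 KO (45.6%). In CD28 Y170F 6 passed (40.3%), in Ars2 KO 4 (23.6%) and in WT 4 (29.5%). Ccr2 rose by a log2 ratio of 2.82 (CD28 Y170F) to 4.45 (labelled CD28 KO), Cxcr3 rose by 1.29 (Ars2 KO) to 2.02 (labelled CD28 KO), and Ccr7 fell, with log2 ratios from -0.57 (WT) to -1.47 (Ars2 KO). In WT, Ccr2 stood at 157 and 95.6 CPM at day 3, against 15.6 and 10.9 CPM at day 1, and Cxcr3 at 75.0 and 72.5 CPM, against 26.8 and 15.4 CPM. The call of Ccr7 in WT was lost without WT number 1 or number 4 of day 1 (adjusted p = 0.065 and 0.072) and without WT number 1 of day 3 (0.12). The rise of Ccr2 and Cxcr3 passed in every genotype whichever library was left out.

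The other members split by genotype. Itga4 fell in the libraries labelled CD28 KO (log2 ratio -1.78, SE 0.27, adjusted p = 7.4e-06), in DKI (-1.90, SE 0.22, adjusted p = 1.7e-07) and in CD28 AYAA (-1.47, SE 0.21, adjusted p = 7.4e-06), and in WT the value was -0.10 (SE 0.26, adjusted p = 0.83). S1pr1 fell in the same 3 (-1.83, -1.81 and -1.44, with adjusted p = 5.3e-05, 5.3e-06 and 9.4e-05) and rose in CD28 Y170F (0.93, SE 0.26, adjusted p = 0.0047), where number 1 of day 3 held 191 CPM and numbers 2 and 3 held 421 and 481 CPM, against 200, 195 and 177 CPM at day 1. Leaving out number 3 of day 3 ended that call (0.68, adjusted p = 0.051). Cxcr4 rose in WT (1.88, SE 0.36, adjusted p = 2.7e-04) and in CD28 Y170F (1.73, SE 0.29, adjusted p = 3.4e-05) and fell in DKI (-0.76, SE 0.29, adjusted p = 0.034). Cd44 rose in all 5 mutants, by 0.49 to 1.59, and did not pass in WT (0.32, SE 0.19, adjusted p = 0.23). Itgae fell in the libraries labelled CD28 KO (-1.88, SE 0.52, adjusted p = 0.0047), in CD28 AYAA (-1.51, SE 0.44, adjusted p = 0.0075) and in DKI (-1.11, SE 0.45, adjusted p = 0.043).

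Several of these smaller changes rested on single libraries. In DKI, Cxcr4 was lost without any of 4 libraries (-0.70 to -0.76, adjusted p = 0.066 to 0.092), namely numbers 2 and 3 of day 1 and numbers 1 and 3 of day 3, and Itgae without any of 5, all but number 2 of day 3 (-0.91 to -1.21, adjusted p = 0.053 to 0.15). Cd44 was lost in Ars2 KO without number 1 or number 3 of day 1 (adjusted p = 0.11 and 0.090) or number 2 of day 3 (0.14), and in CD28 Y170F without number 1 or number 2 of day 1 (0.067 and 0.069) or number 3 of day 3 (0.053). Itgae in the libraries labelled CD28 KO was lost without 1 of the day 3 libraries (-1.71, adjusted p = 0.051).

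**Figure D3:**
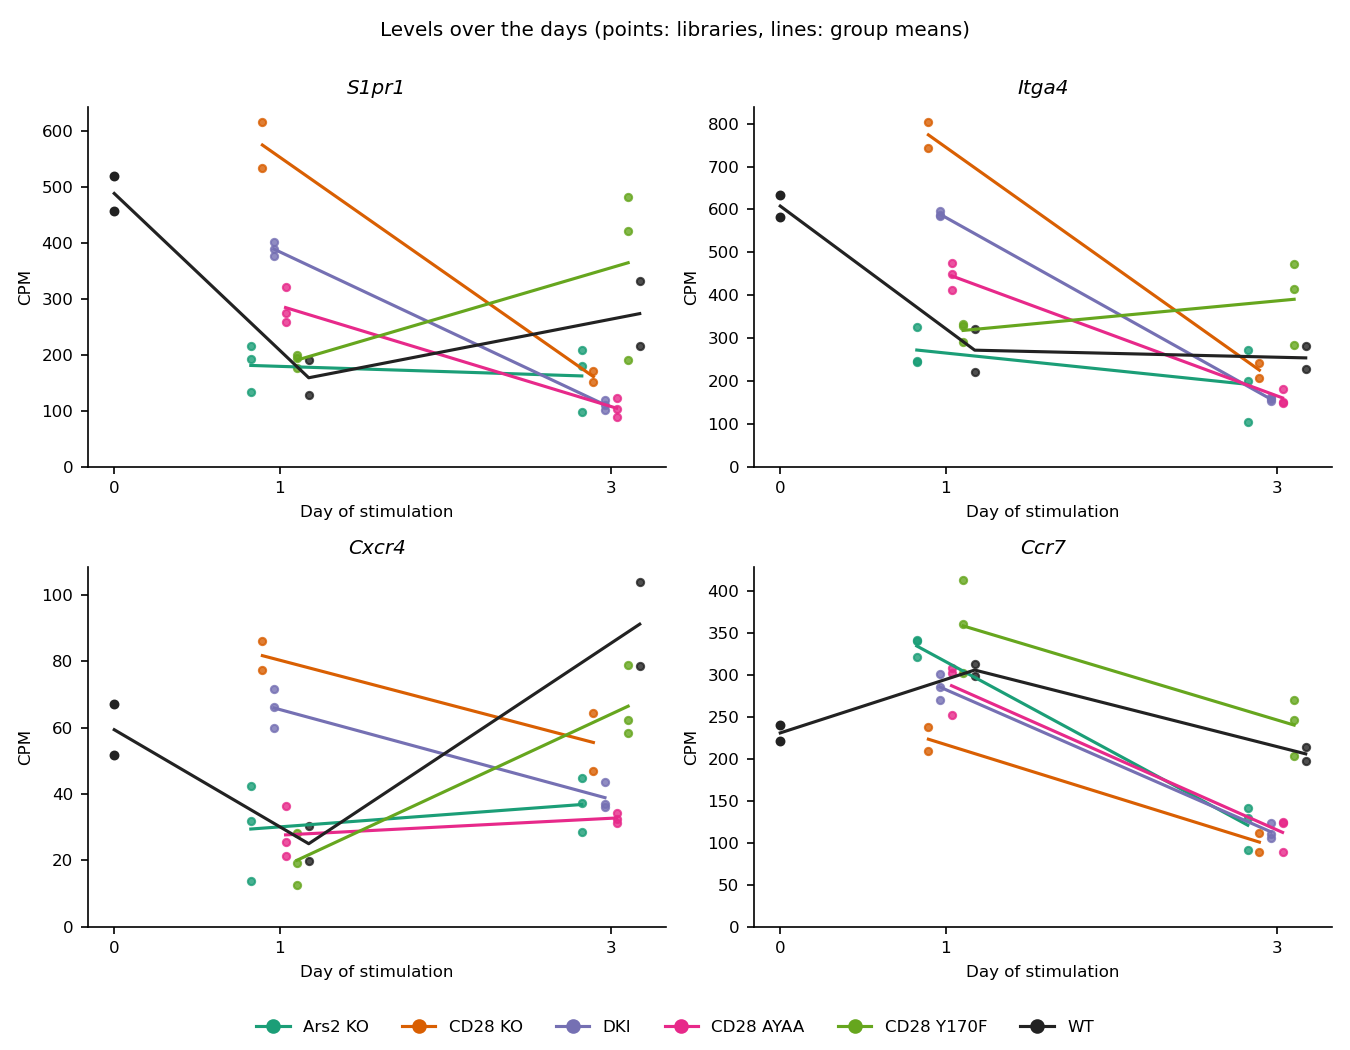
CPM of S1pr1, Itga4, Cxcr4 and Ccr7 by day of stimulation, with points for libraries and lines through group means, points of a day set side by side by genotype. For S1pr1 and Itga4 the lines of the libraries labelled CD28 KO, DKI and CD28 AYAA fall steeply to means below WT at day 3. Itga4 in the libraries labelled CD28 KO still overlapped WT there (208 and 243 CPM, against 227 and 281 CPM). Ccr7 ends at 89.1 to 142 CPM in 4 mutants, against 198 and 214 CPM in WT.

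The CD28 alleles were also set against each other, with no WT library in the contrast. CD28 AYAA differed from the libraries labelled CD28 KO at day 1 in 5 of 8 members (27.4% of all genes tested passed), with S1pr1 (log2 ratio -1.02, SE 0.28, adjusted p = 0.0082), Cxcr4 (-1.56, SE 0.31, adjusted p = 6.2e-04), Itga4 (-0.80, SE 0.23, adjusted p = 0.012) and Itgae (-1.22, SE 0.46, adjusted p = 0.047) lower and Cd44 higher (0.59, SE 0.18, adjusted p = 0.015). Cxcr4 alone passed without number 1 of the libraries labelled CD28 KO, where S1pr1 was at -0.90 (adjusted p = 0.096), Itga4 at -0.74 (adjusted p = 0.10), Itgae at -1.01 and Cd44 at 0.39 (both adjusted p = 0.27). Itgae was also lost without number 2 of those libraries or number 2 or number 3 of CD28 AYAA (adjusted p = 0.083, 0.15 and 0.10), and Cd44 without number 3 of CD28 AYAA (0.078). At day 3, 0 of 8 passed in this pair (1.03% of all genes). DKI and the libraries labelled CD28 KO differed in 0 of 8 members at day 1 (9.06% of all genes) and in 0 of 8 at day 3 (0.454%), where the smallest p at day 1 was that of Cd44 (log2 ratio 0.55, SE 0.18, adjusted p = 0.056). In these 3 comparisons limma-voom called 0 members, DESeq2 called 1 in DKI against the libraries labelled CD28 KO at day 1 and 0 in the others, and 3, 2 and 2 members had an unadjusted p under 0.05. When each fit held the 2 groups alone, 4, 6 and 6 members passed, so these counts do not show that the alleles acted alike. All DKI libraries were of low depth and those labelled CD28 KO were not, so depth and genotype cannot be told apart in that pair.

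CD28 AYAA against CD28 Y170F gave 1 member at day 1 (4.35% of all genes tested), Cd44, at 36.1, 42.3 and 50.0 CPM in CD28 AYAA, against 58.8, 58.5 and 78.5 CPM in CD28 Y170F (log2 ratio -0.61, SE 0.16, adjusted p = 0.028). This call was lost without number 1 or number 2 of CD28 AYAA (adjusted p = 0.15 and 0.092) and without number 3 of CD28 Y170F (0.16). At day 3 the same pair differed in 6 members, all lower in CD28 AYAA (36.8% of all genes passed, 19.2% lower). S1pr1 was at 122, 103 and 89.0 CPM in CD28 AYAA, against 191, 421 and 481 CPM in CD28 Y170F (-1.80, SE 0.26, adjusted p = 1.1e-05), and Ccr7 was at 125, 123 and 89.1 CPM, against 204, 270 and 247 CPM (-1.10, SE 0.14, adjusted p = 3.4e-06). Itga4 (-1.28, SE 0.21, adjusted p = 4.9e-05), Cxcr4 (-1.02, SE 0.29, adjusted p = 0.0063), Itgae (-1.56, SE 0.44, adjusted p = 0.0071) and Cd44 (-0.43, SE 0.15, adjusted p = 0.030) made up the rest. Itgae was lost without number 3 of CD28 Y170F at day 3 (-0.68, adjusted p = 0.24), whose 29.2 CPM stood apart from 5.15 and 11.3 CPM, and Cd44 was lost without number 1 or number 2 of CD28 AYAA (adjusted p = 0.18 and 0.084) and without number 2 or number 3 of CD28 Y170F (0.059 and 0.11).

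DKI against CD28 AYAA gave Cxcr4 at day 1, at 60, 66.3 and 71.6 CPM in DKI, against 25.4, 21.2 and 36.4 CPM in CD28 AYAA (log2 ratio 1.25, SE 0.29, adjusted p = 0.014), with 2.51% of all genes passing. It was lost without number 1 or number 2 of CD28 AYAA (1.19 and 1.09, adjusted p = 0.062 and 0.11) and without number 3 of DKI (1.19, adjusted p = 0.061). All DKI libraries were of low depth and all CD28 AYAA libraries were not, so depth and genotype cannot be told apart in this pair. At day 3, 0 of 8 passed (0.0437% of all genes), also by DESeq2 and limma-voom, with 2 at an unadjusted p under 0.05 and 2 passing when the fit held the 2 groups alone.

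The design text sets every group against unstimulated WT, and these 10 comparisons of mutants share the 2 day 0 libraries. Members passed in 48 of 80 cases, 44 lower and 4 higher, with 49.1 to 60.2% of all genes passing. By day 1 and day 3 the counts were 7 and 6 in Ars2 KO (53.6 and 56.8% of all genes), 3 and 4 in the libraries labelled CD28 KO (52.2 and 52.1%), 3 and 5 in DKI (49.1 and 58.1%), 6 and 5 in CD28 AYAA (50 and 60.2%) and 7 and 2 in CD28 Y170F (54.7 and 53.8%). In the libraries labelled CD28 KO at day 1, S1pr1, Itga4, Cxcr4 and Itgae did not pass against day 0, with log2 ratios of 0.24, 0.35, 0.46 and -0.49. Ccr2 in Ars2 KO at day 3 was above day 0 (log2 ratio 1.36), as was Ccr7 at day 1 in Ars2 KO (0.54) and CD28 Y170F (0.63). Ccr2 in Ars2 KO was lost without number 1 or number 2 of Ars2 KO (1.41 and 0.82, adjusted p = 0.051 and 0.22) or either day 0 library (1.35 and 1.38, adjusted p = 0.14 and 0.13), and Ccr7 in Ars2 KO without day 0 number 2 (0.48, adjusted p = 0.071).

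Ccr2 separated the days of stimulation, and no genotype passed against WT of the same day. It stood at 82.1 and 83.6 CPM in the 2 libraries of day 0, at 4.26 to 22.4 CPM in the 16 of day 1 and at 32.9 to 348 CPM in the 16 of day 3. Day 1 and day 3 did not overlap. Within a genotype, day 1 and day 3 ranges were apart in 30.8% (Ars2 KO) to 76.1% (labelled CD28 KO) of all genes tested. The share over all libraries of the 2 days was not counted. Against WT of the same day Ccr2 passed in 0 of 10 comparisons, with log2 ratios of -0.84 to 0.75 and standard errors of 0.53 to 0.66, so differences of that size could not be shown. In Ars2 KO at day 3, the group with the highest mean of Ccr2, the 16 myeloid markers summed to 17.4 to 35.0 CPM, against 10.8 and 12.2 CPM in WT, and 4 of them passed as higher (12.9% of all genes tested passed there). Lyz2, a lysozyme of myeloid cells, was at 10.7, 2.75 and 0.686 CPM there, against 0.172 and 0 CPM in WT, and Csf1r was at 0.203 to 1.25 CPM in all libraries of day 3. Ccr2 was at 200, 348 and 92.1 CPM in Ars2 KO numbers 1, 2 and 3, and the NK and innate markers summed to 237, 369 and 154 CPM in the same libraries. The part of these cells in the level of Ccr2 was not tested.

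**Figure D4:**
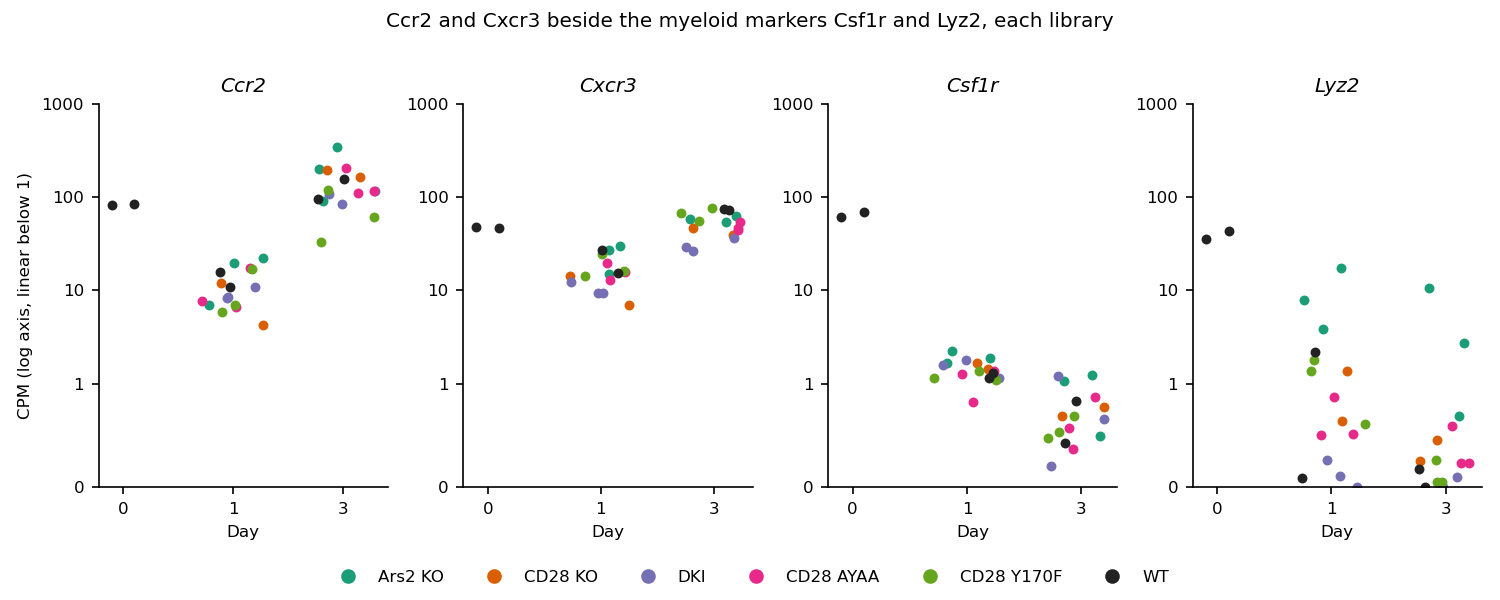
CPM of Ccr2, Cxcr3, Csf1r and Lyz2 in every library by day, on an axis that is logarithmic above 1 CPM and linear below. Ccr2 was at 82.1 and 83.6 CPM at day 0 together with Csf1r at 61.1 and 68.9 CPM, and at 32.9 to 348 CPM at day 3, where Csf1r was at 0.203 to 1.25 CPM.

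Other members of the pathways were read from lists chosen with earlier results of these data known, so their counts are descriptions. Over all genes tested, 43.3% passed in the libraries labelled CD28 KO at day 1 and 26% in DKI at day 1. At day 3 the share was 23.4% in DKI (13.1% lower) and 21.7% in CD28 AYAA (11.3% lower). Among 14 genes of S1P sensing and egress, 7 were higher and 1 lower in the libraries labelled CD28 KO at day 1, with a median log2 ratio of 0.46, against 0.02 over all genes tested. S1pr4, another S1P receptor, was higher at day 1 in the libraries labelled CD28 KO (log2 ratio 1.46, SE 0.24, adjusted p = 2.7e-05) and in DKI (1.08, SE 0.22, adjusted p = 0.0011). It was lower at day 3 in DKI (-1.21, SE 0.21, adjusted p = 2.0e-04), in CD28 AYAA (-1.28, SE 0.21, adjusted p = 1.4e-04), in the libraries labelled CD28 KO (-1.19, SE 0.24, adjusted p = 8.5e-04) and in Ars2 KO (-0.80, SE 0.21, adjusted p = 0.012). Grk2, the kinase that desensitises S1PR1, was lower at day 3 in the same 4 mutants, with log2 ratios of -0.31 to -0.53.

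Among 21 transcription factors and signalling genes known to regulate homing genes, 9 were higher and 3 lower in the libraries labelled CD28 KO at day 1, and 3 higher and 10 lower in both DKI and CD28 AYAA at day 3. Tbx21, which encodes T-bet, known to drive Cxcr3, had the smallest p of the list at day 1, with a mean of 5.78 CPM in the libraries labelled CD28 KO, 11.8 CPM in DKI and 20.5 CPM in CD28 AYAA, against 88.1 CPM in WT. The log2 ratios were -3.92 (SE 0.30, adjusted p = 1.6e-09), -2.89 (SE 0.25, adjusted p = 2.3e-07) and -2.10 (SE 0.24, adjusted p = 9.9e-06). Cxcr3 did not pass in CD28 AYAA at day 1, and the part of Tbx21 in its level was not tested. Klf3, a KLF factor, was higher at day 1 in the libraries labelled CD28 KO (1.60, SE 0.28, adjusted p = 6.1e-05) and in DKI (1.13, SE 0.26, adjusted p = 0.0029). At day 3 Tcf7, a factor of naive and memory T cells, was lower in DKI (-1.42), CD28 AYAA (-1.43), the libraries labelled CD28 KO (-1.17) and Ars2 KO (-1.05), all with adjusted p of at most 0.0018. Klf2, named here after its values were seen, was at 418 and 363 CPM in the libraries labelled CD28 KO at day 1 and at 294 to 321 CPM in DKI, against 104 and 173 CPM in WT. Its values in the remaining groups are not given here, and its part in the level of S1pr1 was not tested.

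The partner chains of the integrin members did not simply follow them. Itgb1, which pairs with Itga4 in VLA-4, was lower at day 1 in the libraries labelled CD28 KO (-1.35, SE 0.20, adjusted p = 8.8e-06), in DKI (-0.96, SE 0.18, adjusted p = 4.2e-04) and in CD28 AYAA (-0.64, SE 0.18, adjusted p = 0.045), where Itga4 was at 1.51, 1.12 and 0.71. Itgb7, which pairs with both Itga4 and Itgae, was lower at day 3 in the libraries labelled CD28 KO (-1.06, SE 0.20, adjusted p = 4.8e-04), DKI (-0.85, SE 0.18, adjusted p = 0.0011), CD28 AYAA (-0.84, SE 0.18, adjusted p = 0.0014) and Ars2 KO (-0.58, SE 0.18, adjusted p = 0.032). Of 17 integrin subunits outside the members, 4 were higher and 4 lower in the libraries labelled CD28 KO at day 1, and 2 higher and 6 lower in both DKI and CD28 AYAA at day 3. The day 1 count is near the share of all genes tested that passed there (43.3%). At day 3 that share was 23.4% in DKI and 21.7% in CD28 AYAA.

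Of 19 other chemokine and related receptors, 4 were higher and 4 lower in the libraries labelled CD28 KO at day 1, and 3 higher and 3 lower in DKI. Both counts are near the share of all genes tested that passed there (43.3 and 26%). Gpr183, the oxysterol receptor also called EBI2, was higher at day 1 in the libraries labelled CD28 KO (1.36, SE 0.19, adjusted p = 3.5e-06), DKI (0.86, SE 0.18, adjusted p = 0.0010) and CD28 AYAA (0.66, SE 0.17, adjusted p = 0.039). Ccr4, a receptor for CCL17 and CCL22, was higher at day 3 in DKI (1.95, SE 0.24, adjusted p = 4.8e-06), CD28 AYAA (1.98, SE 0.24, adjusted p = 5.6e-06), Ars2 KO (1.39, SE 0.24, adjusted p = 4.4e-04) and the libraries labelled CD28 KO (1.20, SE 0.25, adjusted p = 0.0014), where Ccr7 was lower. Among 21 genes of integrin activation and motility, 11 were higher and 4 lower in the libraries labelled CD28 KO at day 1, and 1 was higher and 9 lower in DKI at day 3. Rasgrp2, which activates Rap1 and through it integrins, was at 1.69 (SE 0.23, adjusted p = 3.1e-06) in the libraries labelled CD28 KO at day 1 and at -1.13 (SE 0.21, adjusted p = 2.7e-04) in DKI at day 3. Of 14 selectins, selectin ligands and their glycosyltransferases, 0 were higher and 6 lower in DKI at day 3, and 0 higher and 7 lower in CD28 AYAA, among them B4galt1 (-1.12 and -0.81) and Selplg, which encodes the selectin ligand PSGL-1 (-0.57 and -0.56).

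Likeness of pattern was measured as Pearson's r between mean log2 CPM over the 12 stimulated groups, with 8672 genes as candidates, and is given as a description of groups that share genotypes, days and depth. The nearest genes were Gramd1a, Akap13 and Zfp386 for S1pr1 (r of 0.993, 0.993 and 0.992), Chic2, Mettl17 and Pan3 for Itga4 (0.992, 0.988 and 0.987), S100a6, Osbpl3 and Arsb for Ccr2 (0.990, 0.989 and 0.988) and Ctla2a, Ap3s1 and Gnptab for Cxcr3 (0.987, 0.986 and 0.986). They were Zc3h12d, Grcc10 and Mfhas1 for Ccr7 (0.964, 0.956 and 0.953), Prcc, Pla2g16 and Serpinb6b for Cd44 (0.954, 0.933 and 0.930), Gtpbp8, Siah1a and Lman2l for Itgae (0.937, 0.931 and 0.928) and Atad2b, Prex1 and B4galt7 for Cxcr4 (0.926, 0.924 and 0.919). Among the members themselves, S1pr1 and Itga4 were most alike (r of 0.94 over 12 groups), Ccr2 and Cxcr3 came next (0.89), and Ccr7 and Ccr2 ran most opposite (-0.86).

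Overlaps in the annotation are given for Itga4 and Itgae. Itga4 (GRCm38 chromosome 2, 79255426 to 79333123) overlaps Cerkl on the opposite strand, whose mean expected count was 54.5 against 7423.5 for Itga4. The 2 genes share 1124 exonic bases. Itgae (chromosome 11, 73090583 to 73147446) holds Haspin on the opposite strand, with a mean of 584.9 against 381.0 for Itgae. Itgae and Haspin share 0 exonic bases. The libraries keep strand, but the strand setting of the counting is not given in the sources used here. Haspin was lower at day 1 in the libraries labelled CD28 KO (log2 ratio -0.59, adjusted p = 0.012), where Itgae was at 1.64, so the genes moved apart there. Cerkl passed in the direction of Itga4 in CD28 AYAA against CD28 Y170F at day 3 (-1.04, adjusted p = 0.0037). It also did so in the interaction of the libraries labelled CD28 KO (-1.41, adjusted p = 0.028). Against day 0, Cerkl was higher at day 3 in WT (0.82) and CD28 Y170F (1.31), where Itga4 was lower. Any part of Cerkl reads in the Itga4 counts was not tested.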

How the data were processed

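Splenic T cell RNA was depleted of ribosomal RNA and sequenced in 34 libraries. The authors deposited 1 table of expected counts per gene (83.7 to 90.8% of values whole). The submitters' processing notes name bcl2fastq 2.20, FastQC, STAR, RSEM and limma with mm10 and GRCm38, while the annotation release and strand setting are not given in the sources used here. Of 48526 identifiers, 48058 (99.0%) were matched to GENCODE M21. Expected counts were rounded, filtered with filterByExpr (18292 genes) and fitted in edgeR 4.0.16 (R 4.3.3) using a separate mean for each of the 13 groups, TMM factors of 0.83 to 1.11 and a common biological coefficient of variation of 0.16. The quasi-likelihood F test was adjusted over all genes, with a threshold of 0.05. SE is the log2 ratio divided by the root of F. The fit was tested on simulated data.

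The members and gene lists were chosen with earlier results of these data known. Named list genes were up to 4 per list with the smallest p among those called. Lists of like genes took protein-coding genes. The alternatives were RLE, no filter, protein-coding genes alone, terms for depth and sex, limma-voom (limma 3.58.1), DESeq2 1.42.0, the groups compared alone, a replicate block and leaving out each library. Replicate numbers paired libraries, by correlated deviations, for CD28 AYAA with CD28 Y170F at day 1 and for CD28 AYAA at day 3 with day 1. Deviations also correlated by number for WT at day 3 with day 1, where number and depth go together. The day 3 columns labelled CD28 KO were matched to their group only, since their numbers differ from the titles. Figures used matplotlib 3.10.9.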

Additional observations from a re-analysis of the deposited data

Results flagged for a closer look

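The day 3 effect of a genotype against WT differed from its day 1 effect in 13 of the 40 interactions of member and genotype tested (edgeR's quasi-likelihood test with Benjamini-Hochberg adjustment over all genes). All genotypes share the same 4 WT libraries, so these are not 13 separate results. In the libraries labelled CD28 KO the difference was -2.62 for S1pr1, -2.44 for Cxcr4, -1.68 for Itga4 and 1.28 for Cd44 on the log2 scale. In DKI it was -2.59 for S1pr1, -2.64 for Cxcr4, -1.80 for Itga4 and -0.77 for Ccr7. In CD28 AYAA it was -2.22 for S1pr1, -1.63 for Cxcr4, -1.37 for Itga4 and -0.79 for Ccr7, and in Ars2 KO it was -0.90 for Ccr7. Groups of 2 or 3 libraries are too small for a test of single outlying libraries, and none was made.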

How the results depend on the processing

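No member reversed its direction among called values under any alternative. Of 146 calls, RLE scaling lost 0 and gained 3, protein-coding genes alone lost 1 and gained 6, a depth term lost 6 and gained 7, a sex term lost 4 and gained 7, limma-voom lost 5 and gained 9, DESeq2 lost 0 and gained 11, no filter lost 0 and gained 22, and fits of the groups compared alone lost 13 and gained 50. CPM on total counts moved 18 of 104 group levels by more than the SD. The cause of the changes that follow was not tested.

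Counts of members called moved as follows. Libraries labelled CD28 KO against WT at day 3 (1 call) had 3 with no filter and with a sex term, and 2 with a depth term, limma-voom, DESeq2 and the groups compared alone. CD28 AYAA against WT at day 1 (1 call) had 3 with no filter, a depth term and DESeq2. Ars2 KO against WT at day 3 (2 calls) had 1 with a depth term and 0 with the groups compared alone. WT at day 3 against day 0 (3 calls) had 5 with a sex term and 6 with the groups compared alone. The Ars2 KO interaction (1 call) had 2 with no filter, protein-coding genes alone, a depth term and DESeq2, and 0 with the groups compared alone. DKI against the libraries labelled CD28 KO at day 1 (0 calls) had 1 with no filter, a sex term and DESeq2. With the groups compared alone, the alleles had 36 calls instead of 13. These were 6 at day 1 and 6 at day 3 for DKI against the libraries labelled CD28 KO, 4 at day 3 for CD28 AYAA against the libraries labelled CD28 KO, 3 at day 1 for CD28 AYAA against CD28 Y170F, and 5 at day 1 and 2 at day 3 for DKI against CD28 AYAA. DKI against CD28 AYAA at day 1 (1 call) had 0 with a depth term.

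Leaving out 1 library at a time gave 4 to 6 calls in the libraries labelled CD28 KO at day 1 (7 with all libraries), 1 to 5 in DKI at day 1, 3 to 6 in DKI at day 3, 2 to 5 in CD28 AYAA at day 3, 1 to 4 in Ars2 KO at day 3 and 0 to 2 in CD28 Y170F at day 3. The range was 1 to 5 for CD28 AYAA against the libraries labelled CD28 KO at day 1, 0 to 1 for CD28 AYAA against CD28 Y170F and for DKI against CD28 AYAA at day 1, 0 to 2 for the Ars2 KO interaction and 1 to 4 for the CD28 AYAA interaction. Where this left 1 library in a group, that library was assumed to vary like the other groups.

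With the replicate number as a block, WT at day 3 against day 0 had 5 calls, Ars2 KO against WT at day 3 had 1 and CD28 AYAA against WT at day 1 had 3. The numbers paired libraries in 2 comparisons of groups of 3, where the block changed no call. In WT at day 3 against day 1, libraries of the same number also had like deviations (r of 0.55), but number and depth cannot be told apart there. With these 2 pairs, the block put Cd44 in WT at day 3 against day 1 past the threshold (log2 ratio 0.32, SE 0.10, adjusted p = 0.020). Groups of 2 and 3 libraries limit every comparison here, and depths of 8.3 to 47.8 M leave Ccr2, Cxcr3 and Itgae at the lowest counts.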
